A study of Ovis aries with 30 samples.

Results

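Insulin signalling and insulin-responsive glucose uptake were followed through 8 genes, taken by their symbol from the 28524 genes of the count table: the insulin receptor INSR, the adaptors IRS1 and IRS2, the kinase subunit PIK3R1, the kinase AKT2, the glucose transporter SLC2A4, the transcription factor FOXO1 and the arrestin-like protein TXNIP. All 8 passed the filter on low counts in both tissues. RNA was sequenced from brown adipose tissue (BAT) around the kidneys and from thyroid tissue of 15 newborn Romney lambs, born as twins to separate ewes. Cold lambs (6) were kept indoors for 2 days at 4 °C, lambs at ambient temperature (AT, 6) for 2 days at 20–22 °C, and controls (3) were sampled as a baseline about a day after birth. The labels name no drug and no altered gene for any group. At sampling, cold and AT lambs had lived 2 days longer than controls, so that age and treatment cannot be told apart in any comparison with the controls, whereas cold and AT lambs were of the same age.

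Insulin binds its receptor, a tyrosine kinase that phosphorylates the adaptors IRS1 and IRS2. The adaptors recruit phosphoinositide 3-kinase, whose product at the membrane brings about the activation of AKT kinases. AKT2 sends vesicles with the transporter GLUT4, the protein of SLC2A4, to the surface of adipocytes and muscle fibres, and it keeps FOXO1 out of the nucleus, where FOXO1 would switch on genes of the fasting state. TXNIP is induced when glucose enters the cell and brings glucose transporters back from the surface. In brown adipocytes insulin is a strong stimulus of glucose uptake beside noradrenaline. Much of this signalling is phosphorylation and vesicle movement, and RNA levels do not measure either.

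A library held 31556500–37025998 counts in BAT and 25062784–30124871 in thyroid tissue. A pair of unnamed genes, LOC114112617 and LOC114115287, took 43.82–76.48% of the counts in BAT and 5.179–27.79% in thyroid tissue, which left 8093700–18276329 and 18098434–26929601 counts for all other genes. Values below are normalized counts, which are counts divided by a size factor from ACTB, RPL19 and HUWE1 and can be compared between lambs of the same tissue only. Of the controls, the study used 2 (Control 1 and Control 2) and left out the same lamb in both tissues (Control 3), so the groups compared hold 6, 6 and 2 lambs. In BAT of Control 3 the scaled reference genes stood apart, with RPL19 at 18573 (others 8155–13523) and HUWE1 at 1663 (others 2374–4811). Its size factor in BAT was 0.465, against 0.537–1.84 in the libraries used. Its normalized counts in BAT thus depend on the choice of reference gene. Markers of the labelled tissues were present, with a summed level of 9 thyroid follicular genes of 1328917–5891879 in thyroid tissue and of 9 adipocyte genes of 31477–126548 in BAT of the lambs used. Several libraries stood apart. In thyroid tissue the 11 muscle fibre markers in the table summed to 3823136 in AT 3 and to 372859 in Control 1, against 389–4593 in the other libraries used, and the 4 parathyroid markers summed to 51396 in Control 3, against 63.6–2729 elsewhere. Thyroid Control 2 had the highest sum of follicular genes. In BAT, AT 6 had the lowest sums of adipocyte (31477) and brown adipocyte markers (1543) and the highest sum of fibroblast markers (185057, others used 33304–110662), and Control 3 had an adipocyte sum of 327390. In such bulk samples, fewer cells of a type and less RNA per cell cannot be told apart. Of 116 genes on 10 lists around the pathway, 108 are listed beside the 8 genes, and 103 of these were tested in BAT and 105 in thyroid tissue.

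Per 1000 bases of exon, TXNIP had by far the highest level of the 8 genes in both tissues. In BAT its mean was 8542 ± 2570 (SD, n = 14) normalized counts per 1000 bases, followed by INSR (186 ± 85.5), PIK3R1 (170 ± 50), FOXO1 (155 ± 33.3), SLC2A4 (127 ± 54.9) and AKT2 (98.8 ± 25), then IRS2 (40.6 ± 13.4) and IRS1 (11.5 ± 3.53). The neighbours from INSR to AKT2 overlapped in their ranges, whereas TXNIP over INSR, AKT2 over IRS2 and IRS2 over IRS1 held in all 14 libraries with no overlap of the ranges. In thyroid tissue TXNIP (10652 ± 3102 per 1000 bases) was followed by AKT2 (262 ± 76.6), INSR (193 ± 37.6), FOXO1 (186 ± 24.2), IRS2 (182 ± 98.1), PIK3R1 (142 ± 22.7), SLC2A4 (115 ± 198) and IRS1 (81.4 ± 76.5). There the ranges of all neighbours below TXNIP overlapped, although AKT2 lay above INSR in each of the 14 libraries. The 2 adaptors were thus the lowest of the 8 genes in BAT, with raw counts of IRS1 between 37 and 230 in a BAT library, while raw counts of TXNIP reached 54025 in thyroid tissue.

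The tissues of the same lambs were compared in a joint fit of 28 libraries. Relative to the 3 reference genes, 5 of the 8 genes were higher in BAT and 2 were lower, against 47.3% of 14403 tested genes higher and 23.6% lower. The median log2 fold change (log2FC) of all tested genes was 0.29, and TMM scaling, which centres on all genes, moved it to -0.0013 and split all genes into 5203 higher and 5213 lower. SLC2A4 was higher in BAT by a log2FC of 1.62 ± 0.45 (SE, adjusted p = 0.00267) and PIK3R1 by 1.61 ± 0.15 (adjusted p = 3.98e-10). INSR (1.12 ± 0.16), TXNIP (1.07 ± 0.18) and FOXO1 (1.04 ± 0.11) were also higher in BAT, and stayed so under TMM scaling at 0.81, 0.75 and 0.74. IRS1 was lower in BAT, at -1.84 ± 0.24 (adjusted p = 1.05e-07), and so was IRS2, at -0.97 ± 0.18 (adjusted p = 3.59e-05). AKT2 did not pass (-0.16 ± 0.14, 95% interval -0.43 to 0.11, adjusted p = 0.297), and under TMM scaling it was lower in BAT (-0.44, adjusted p = 0.00236). Without the lamb AT 3, whose thyroid library held muscle RNA, the difference of SLC2A4 was 2.13. The 7 genes that passed did so in all 21 alternatives computed for this comparison. The size of the adaptor differences varied, from -2.10 to -0.59 for IRS1 and from -1.27 to -0.56 for IRS2. With Control 3 in place of Control 2, IRS1 passed narrowly (adjusted p = 0.047).

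In BAT of cold against control lambs none of the 8 genes passed an adjusted p of 0.05 by edgeR, against 0.604% of 14905 tested genes higher, 0.872% lower and 1.21% past the fold threshold of the study (|log2FC| of 1 or more) as well. IRS1 alone had an unadjusted p under 0.05, and by DESeq2 IRS1 passed as the only one. In BAT of AT against control lambs again none passed by edgeR, against 3.09% of all genes higher, 6.1% lower and 6.02% past the fold threshold, and IRS1 alone had an unadjusted p under 0.05 and was the only one to pass by DESeq2. Cold against AT gave none among the 8 by edgeR and 0.215% higher, 0.0939% lower and 0.275% past the fold threshold of all genes. There, INSR, SLC2A4 and TXNIP had unadjusted p-values under 0.05, and DESeq2 called none. The values of each gene by lamb follow below.

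**Figure D1:**
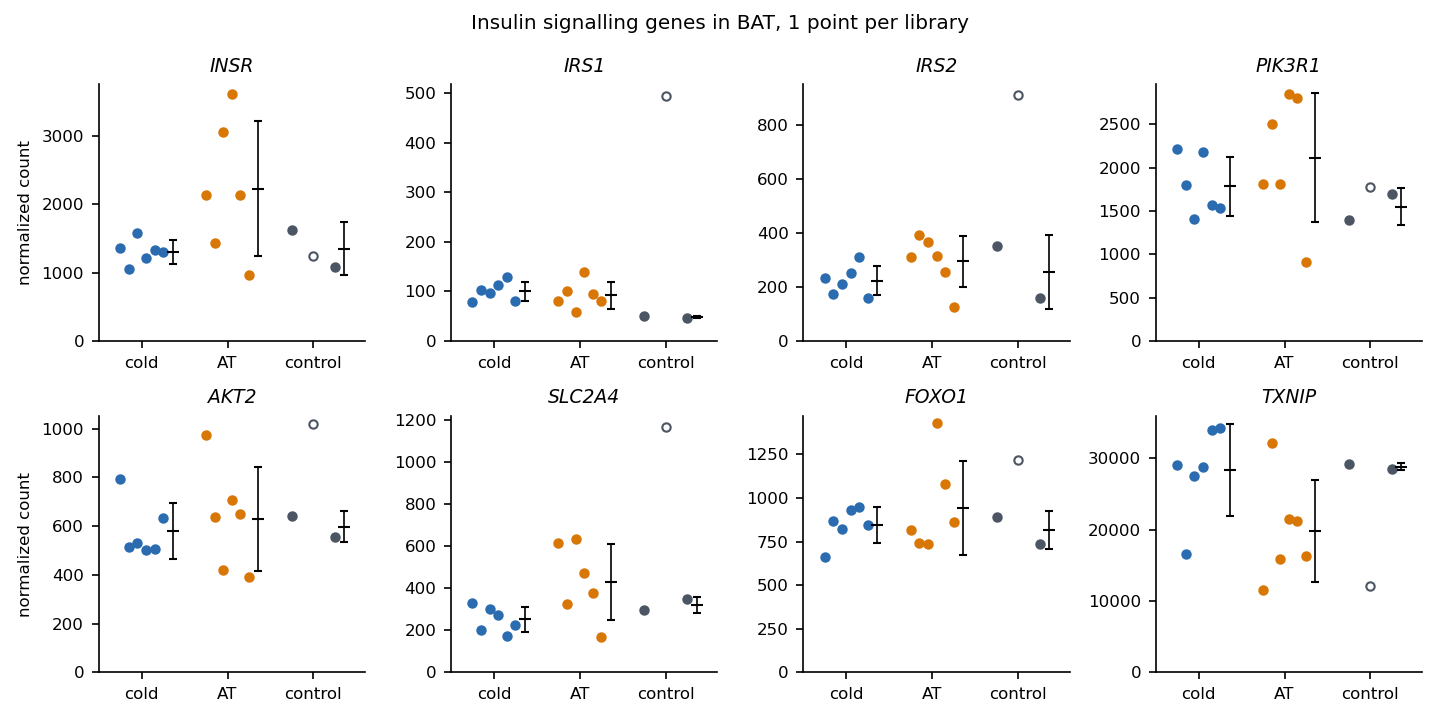
Normalized counts of the 8 genes in BAT (linear axes from 0), 1 point per library in the cold, AT and control lambs; the hollow point is Control 3, which the comparisons leave out, and bars are the mean and SD of the filled points. INSR and SLC2A4 reach higher in the AT lambs than in the cold lambs, with AT 6 at 966 and 166, and the hollow point stands above all others for IRS1, IRS2, AKT2 and SLC2A4.

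In thyroid tissue, 4 of the 8 genes were downregulated in cold against control lambs (INSR, IRS1, IRS2 and AKT2) and none was upregulated. This stands against 16.9% of 16122 tested genes lower and 2.36% higher, and 2 of the 8 (IRS1 and IRS2) also passed the fold threshold, against 8.04% of all genes. In AT against control lambs 3 were downregulated (IRS1, IRS2 and AKT2), against 18.8% lower and 2.24% higher of all genes, and IRS1 and IRS2 passed the fold threshold, as 7.81% of all genes did. Both comparisons use the same 2 controls. Between cold and AT lambs none of the 8 passed, and of all genes 0% were higher, 0% lower and 0% past the fold threshold by edgeR. At an unadjusted p under 0.05 stood 870 of all genes and 1 of the 8, SLC2A4. By DESeq2 4 of all genes and none of the 8 passed an adjusted p of 0.05.

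Marker sums of several cell types moved with the groups in thyroid tissue. The controls used lay above all 12 treated lambs for follicular genes (2882017–5891879 against 1328917–2716608), and below all of them for fibroblast markers (18430–18939 against 32082–147297) and macrophage markers (1370–1455 against 1749–4108). Control 3 lay within the treated lambs for follicular genes (1932032) and below them for the other lists (25043 and 1702). The part of these shifts in the lower levels of INSR, IRS1, IRS2 and AKT2 was not tested.

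The thyroid calls depend on the scaling and on the controls. The median log2FC of all tested thyroid genes was -0.28 in both comparisons with the controls, and TMM scaling moved it to 0.016 for cold and 0.049 for AT, with 630 genes higher and 804 lower for cold in place of 381 and 2731, and 647 and 754 for AT in place of 361 and 3026. Under TMM scaling IRS2 was the only one of the 8 that was downregulated, in both comparisons, and PIK3R1 was upregulated under cold (0.57, adjusted p = 0.0492). With Control 2 left out and none in its place, Control 1 alone stands for the controls and is assumed to vary like the other groups. Fewer of the 8 passed there in both comparisons, and far fewer of all genes passed as well. With Control 1 left out in the same way, more of all genes were downregulated than with both controls. IRS1, IRS2 and AKT2 were lower there in both comparisons.

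**Figure D2:**
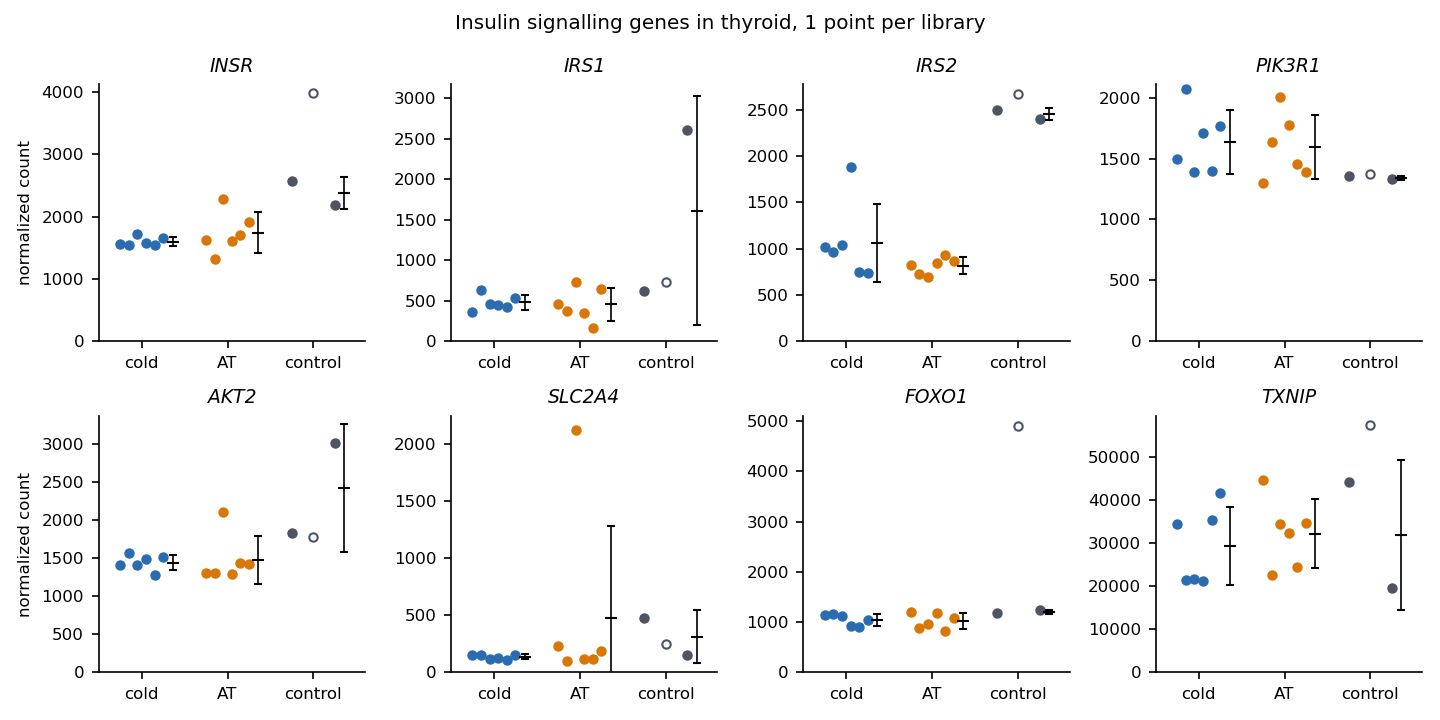
Normalized counts of the 8 genes in thyroid tissue (linear axes from 0), 1 point per library; the hollow point is Control 3, left out of the comparisons, and bars are the mean and SD of the filled points, the lower end of the SLC2A4 bar of the AT lambs being under 0 and not drawn. All 3 control points of IRS2 lie above the 12 treated lambs, a single control carries the height of IRS1, and a single AT lamb that of SLC2A4. For AKT2 Control 2 stands highest, and the other controls lie above all treated lambs but AT 3.

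INSR encodes the receptor (chromosome 5, 14370293–14518272, minus strand, 22 exon blocks, in the Oar_rambouillet_v1.0 build of the count table, as for all positions here). In BAT, INSR ranged from 1052 to 1586 normalized counts in the cold lambs (median 1321) and from 966 to 3626 in the AT lambs (median 2141). The controls had 1625 and 1080. The AT lambs spread widely, with 4 of 6 above every cold lamb and AT 6 below all of them. The mean was 1310 ± 177 (SD, n = 6) in the cold and 2228 ± 990 (n = 6) in the AT lambs, a log2FC of -0.77 ± 0.26 for cold against AT (95% interval -1.27 to -0.26, unadjusted p = 0.00911, adjusted p = 0.27). Without AT 6, the library with the lowest adipocyte marker sum, the log2FC was -0.93 ± 0.21 and passed (adjusted p = 0.0396), and over the 25 alternatives it lay between -0.93 and -0.56. The part of the cell type composition in this difference was not tested.

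In thyroid tissue, INSR was between 1541 and 1716 in the cold lambs (median 1562), between 1324 and 2285 in the AT lambs (median 1661), and 2564 and 2192 in the controls. The cold lambs were close together and all lay under both controls, and of the AT lambs only AT 3, the library with muscle RNA, reached above Control 2. INSR was downregulated under cold (log2FC -0.57 ± 0.16, adjusted p = 0.0255), while for AT it was -0.45 ± 0.16 (adjusted p = 0.0626). Control 3 had 3989, the highest level of INSR in thyroid tissue, in the library whose parathyroid marker sum was 51396, and the part of parathyroid RNA in that level was not tested. With all 3 controls both comparisons passed (-0.87 and -0.74, adjusted p = 0.00662 and 0.0149). With TMM scaling neither did (-0.30 and -0.14, adjusted p = 0.278 and 0.621). For cold, INSR also missed the threshold with Control 2 alone (-0.46, adjusted p = 0.137), with Control 1 alone (-0.67, adjusted p = 0.176) and without Cold 2 (-0.56, adjusted p = 0.0503).

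IRS1 (chromosome 2, 244237006–244301615, minus strand, 2 exon blocks) encodes an adaptor that couples the receptor to phosphoinositide 3-kinase, with a main part in muscle and adipose tissue. In BAT, IRS1 ranged from 78.1 to 129 in the cold lambs (median 99), from 59 to 139 in the AT lambs (median 87.8), and was 49.5 and 46 in the controls. All 12 treated lambs lay above both controls. The log2FC was 1.07 ± 0.32 for cold (95% interval 0.43 to 1.70, adjusted p = 0.0945) and 0.95 ± 0.32 for AT (0.32 to 1.58, adjusted p = 0.0751). IRS1 passed with TMM scaling, with median-of-ratios size factors and by DESeq2 (for cold adjusted p = 0.0382, 0.0383 and 0.0261, for AT 0.0347, 0.0354 and 0.033). Control 3, however, had 495, more than any other BAT library, and with all 3 controls the direction turned to -0.92 (adjusted p = 0.337) for cold and -1.03 (adjusted p = 0.216) for AT. The direction of IRS1 in BAT thus depended on whether Control 3 was used.

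In thyroid tissue, IRS1 ranged from 362 to 632 in the cold lambs (median 454), from 164 to 726 in the AT lambs (median 415), and was 612 in Control 1 and 2615 in Control 2. Control 2 was over 3 times as high as any other thyroid library, and Control 1 lay within both treated groups. IRS1 passed for cold (log2FC -1.76 ± 0.46, adjusted p = 0.02) and for AT (-1.84 ± 0.46, adjusted p = 0.0144). Without Control 2, and with none in its place, the values were -0.35 (adjusted p = 0.809) and -0.43 (adjusted p = 0.744). Control 2 also had the highest summed level of thyroid follicular genes (5891879, others 1328917–2882017) and of endothelial genes (33273, others 11097–24276), and whether these go with its IRS1 was not tested. The mean of the controls was 1614 ± 1416 (SD, n = 2), against 476 ± 94.7 in the cold and 451 ± 207 in the AT lambs (n = 6 each).

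IRS2 (chromosome 10, 94711729–94741969, minus strand, 2 exon blocks) encodes the second adaptor, which is itself induced by FOXO factors in fasting and lowered by insulin in the liver. In thyroid tissue, IRS2 was 2499 and 2408 in the controls, between 738 and 1879 in the cold lambs (median 992) and between 687 and 935 in the AT lambs (median 835). The controls lay above all 12 treated lambs, as they did for the sum of follicular genes. Control 3, which the fit did not use, was higher still for IRS2 at 2676, while its follicular sum (1932032) lay within the treated lambs. IRS2 fell under cold by a log2FC of -1.21 ± 0.26 (0.434-fold, adjusted p = 0.00803) and under AT by -1.59 ± 0.26 (0.332-fold, adjusted p = 0.0018). It passed in all 26 alternatives for AT, with values between -1.73 and -1.26. For cold it passed in 25 of 26, with values between -1.46 and -0.93, the exception being the fit with Control 1 as the only control (-1.21, adjusted p = 0.139). With TMM scaling the values were -0.93 and -1.26 (adjusted p = 0.0399 and 0.0107).

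Within the treated lambs, Cold 4 had 1879 of IRS2 in thyroid tissue while the other cold lambs had 738–1036, and cold against AT gave 0.39 ± 0.20 (unadjusted p = 0.0676, adjusted p = 0.91). In BAT, IRS2 was between 159 and 309 in the cold lambs (median 223), between 125 and 394 in the AT lambs (median 311), and 352 and 158 in the controls. The 3 groups overlapped in BAT, and no comparison passed (log2FC -0.18 ± 0.37, 0.21 ± 0.38 and -0.40 ± 0.26 for cold against control, AT against control and cold against AT). Control 3 had 910, above every other BAT library, and with it the value for AT turned to -0.63 (adjusted p = 0.328). For cold it was -1.03 with all 3 controls (adjusted p = 0.146) and -1.44 with Control 3 in place of Control 2, which passed (adjusted p = 0.0283).

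PIK3R1 (chromosome 16, 11836291–11933624, minus strand, 19 exon blocks) encodes the regulatory subunit of phosphoinositide 3-kinase that binds the phosphorylated adaptors. In BAT it was between 1404 and 2218 in the cold lambs, between 911 and 2849 in the AT lambs, and 1399 and 1699 in the controls, with overlapping groups and log2FC of 0.20 ± 0.34, 0.45 ± 0.34 and -0.25 ± 0.23. In thyroid tissue it was between 1395 and 2073 in the cold lambs, between 1304 and 2009 in the AT lambs, and 1356 and 1331 in the controls. All 6 cold lambs lay above the controls, at a log2FC of 0.29 ± 0.19 (adjusted p = 0.293). AT against control was 0.25 ± 0.19 (adjusted p = 0.357). PIK3R1 was the only one of the 8 genes with no value below 0 in any alternative of these 2 thyroid comparisons (0.17 to 0.58).

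AKT2 (chromosome 14, 53022208–53071015, plus strand, 21 exon blocks) encodes the AKT kinase best known for insulin-stimulated glucose uptake. In BAT it passed in no comparison (-0.045 ± 0.29, 0.075 ± 0.29 and -0.12 ± 0.20), with cold lambs at 501–793, AT lambs at 391–974 and controls at 642 and 554. In thyroid tissue AKT2 was between 1279 and 1564 in the cold lambs (median 1452), between 1297 and 2111 in the AT lambs (median 1368), and 1834 and 3021 in the controls. The cold lambs lay under both controls, and of the AT lambs AT 3 lay above Control 1. Control 3, at 1778, lay above all treated lambs but AT 3. AKT2 passed for cold (-0.75 ± 0.20, adjusted p = 0.0192) and for AT (-0.71 ± 0.20, adjusted p = 0.0209), and without AT 3 the latter was -0.84 (adjusted p = 0.0013). Without Control 2, and with none in its place, the values were -0.33 (adjusted p = 0.546) and -0.29 (adjusted p = 0.584), and Control 2 was also the library highest for IRS1. With TMM scaling they were -0.42 (adjusted p = 0.11) and -0.36 (adjusted p = 0.166).

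SLC2A4 (chromosome 11, 36363206–36369023, minus strand, 11 exon blocks) encodes GLUT4, the insulin-responsive glucose transporter of adipocytes and muscle. In BAT it ranged from 175 to 331 in the cold lambs (median 249), from 166 to 636 in the AT lambs (median 423), and was 295 and 349 in the controls. Of the AT lambs, AT 1, AT 3, AT 4 and AT 5 lay above every cold lamb and both controls, AT 2 was just below the highest cold lamb, and AT 6 was the lowest of all. The mean was 251 ± 61.1 (n = 6) under cold and 432 ± 180 (n = 6) under AT, a log2FC of -0.78 ± 0.27 (95% interval -1.31 to -0.26, unadjusted p = 0.00992, adjusted p = 0.278). Without AT 6 it was -0.97 ± 0.20 and passed (adjusted p = 0.0348). Over the 25 alternatives the value lay between -0.97 and -0.63, and it passed in 1 of them. Against the controls, SLC2A4 was -0.37 ± 0.37 for cold and 0.42 ± 0.39 for AT, with neither passing (adjusted p = 0.646 and 0.524). With Control 3 the cold value was larger, at -1.22 with all 3 controls (adjusted p = 0.0927), -1.54 with Control 3 in place of Control 1 (adjusted p = 0.0459) and -1.49 in place of Control 2 (adjusted p = 0.0571).

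AT 6 was the lowest AT library in BAT for 5 of the 8 genes (INSR, IRS2, PIK3R1, AKT2 and SLC2A4). It was also the library with the lowest adipocyte and brown adipocyte marker sums, whose part in these levels was not tested. Control 3 had 1168 of SLC2A4, above every other BAT library, together with the highest adipocyte marker sum (327390). With all 3 controls SLC2A4 was -0.42 for AT against control (adjusted p = 0.531), a change of sign.

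In thyroid tissue, SLC2A4 was between 107 and 156 in the cold lambs (median 143), between 101 and 2118 in the AT lambs (median 153), and 478 and 148 in the controls. The high values belong to AT 3 (2118) and Control 1 (478), the libraries with the summed muscle markers of 3823136 and 372859, while the other 12 libraries used lay between 101 and 228. Cold against AT was -1.80 ± 0.76 (unadjusted p = 0.0336, adjusted p = 0.907), and without AT 3 it was -0.13 ± 0.29 (adjusted p = 0.965). Without AT 3 the AT lambs were lower than the controls (-1.07, adjusted p = 0.0431, against 0.60 ± 1.07 with it), and the cold lambs too (-1.20, adjusted p = 0.0242, against -1.19 ± 0.98). With both muscle-bearing libraries out and Control 3 in place of Control 1, the values were -0.53 for cold, -0.40 for AT and -0.14 for cold against AT, and none passed. SLC2A4 is a gene of muscle fibres as well as of adipocytes. The adipocyte marker sum in thyroid tissue was 3727 in AT 3 and 4613 in Control 1, within the range of the others used (2219–14546). The part of either cell type in these SLC2A4 levels was not tested.

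**Figure D3:**
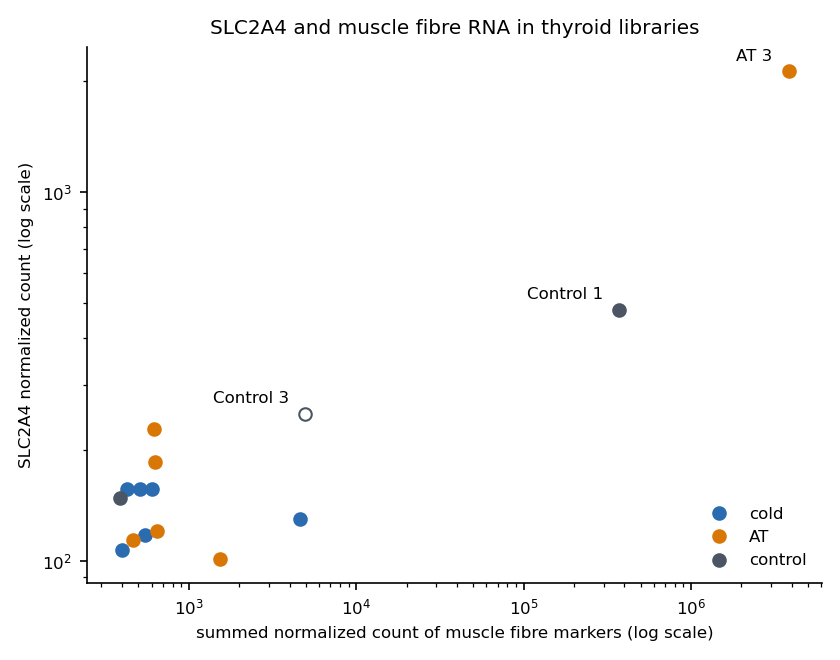
Normalized count of SLC2A4 against the summed normalized count of 11 muscle fibre markers in the 15 thyroid libraries, both axes on a log scale; colours give the group and the hollow point is Control 3. AT 3 and Control 1 stand to the upper right of a cluster with SLC2A4 between 101 and 250.

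FOXO1 (chromosome 10, 24248756–24341040, plus strand, 3 exon blocks) encodes the transcription factor that AKT phosphorylates out of the nucleus. In BAT, FOXO1 was between 660 and 946 in the cold lambs, between 736 and 1432 in the AT lambs, and 892 and 739 in the controls. The groups overlapped, with log2FC of 0.053 ± 0.24 for cold, 0.21 ± 0.25 for AT and -0.16 ± 0.17 for cold against AT. In thyroid tissue it was between 896 and 1160 in the cold lambs (median 1085), between 834 and 1210 in the AT lambs (median 1025), and 1178 and 1237 in the controls. All cold lambs lay just below the controls, but the difference was small (-0.21 ± 0.17, adjusted p = 0.404; AT -0.23 ± 0.17, adjusted p = 0.332) and its sign turned with TMM scaling (0.085 and 0.096). Control 3 had 4899, above every other library, and with all 3 controls FOXO1 passed for cold (-1.22, adjusted p = 0.0207) and AT (-1.24, adjusted p = 0.0208). Control 3 is the library with the parathyroid marker sum of 51396, whose part in its FOXO1 was not tested.

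TXNIP (chromosome 1, 105020462–105024647, minus strand, 8 exon blocks) encodes the protein that binds thioredoxin and takes glucose transporters off the surface. In BAT, TXNIP ranged from 16577 to 34187 in the cold lambs (median 28899), from 11476 to 32172 in the AT lambs (median 18784), and was 29123 and 28474 in the controls. Control 3, which the fit did not use, had 12157. Of the 6 cold lambs 5 lay above 5 of the 6 AT lambs, with Cold 2 and AT 2 as the exceptions. The log2FC was 0.52 ± 0.23 for cold against AT (95% interval 0.072 to 0.97, unadjusted p = 0.0369, adjusted p = 0.379), and it lay between 0.41 and 0.71 over the 25 alternatives, none of which passed. AT against control was -0.54 ± 0.31 (adjusted p = 0.285) and cold against control -0.023 ± 0.32. In BAT, then, the order of the AT and cold lambs was opposite for TXNIP and for INSR and SLC2A4, but none of the 3 differences passed.

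In thyroid tissue TXNIP was between 21229 and 41638 in the cold lambs, between 22580 and 44589 in the AT lambs, and 44022 and 19443 in the controls. Control 2 was the lowest of the libraries used, and only AT 1 lay above Control 1. Control 3 had 57235, the highest of all. No comparison passed, at -0.12 ± 0.34, 0.018 ± 0.34 and -0.14 ± 0.24. Against the controls the 95% interval was -0.78 to 0.54 for the cold lambs and -0.65 to 0.68 for the AT lambs.

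**Figure D4:**
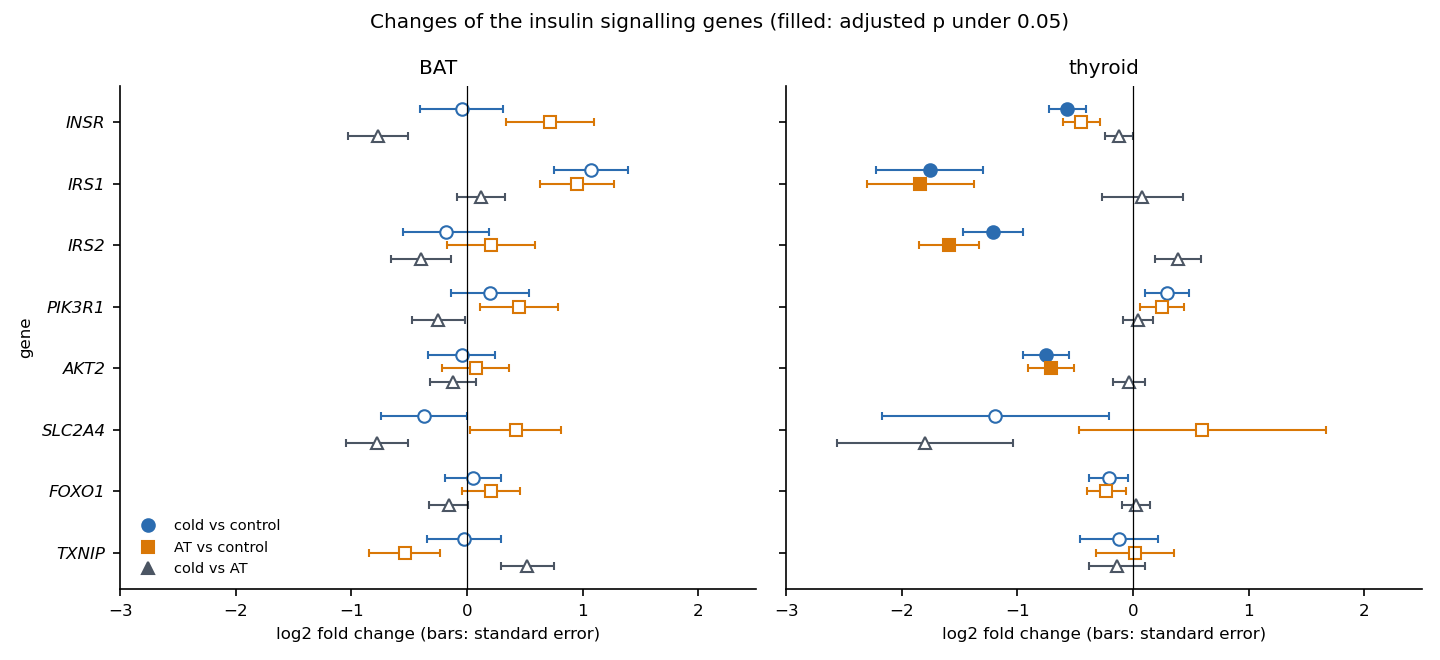
log2FC of the 8 genes for cold against control (circles), AT against control (squares) and cold against AT (triangles) in BAT and thyroid tissue, with standard errors as bars; filled symbols have an adjusted p under 0.05. The 7 filled symbols all lie in thyroid tissue and below 0, at IRS1, IRS2 and AKT2 for both comparisons with the controls and at INSR for cold.

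Whether the changes differed between the tissues was tested in the joint fit, as the BAT change minus the thyroid change. For cold against control, IRS1 differed by 2.87 ± 0.62 (adjusted p = 0.0415), 1 of the 8 genes, against 0.236% of 14403 genes with a higher and 0.0208% with a lower difference. For AT against control, IRS1 (2.84 ± 0.62, adjusted p = 0.0164) and IRS2 (1.85 ± 0.49, adjusted p = 0.043) differed, 2 of the 8, against 2.13% higher and 0.243% lower. For cold against AT none differed, against 0.00694% and 0% of all genes, and INSR (-0.67 ± 0.30) and IRS2 (-0.81 ± 0.34) had unadjusted p-values under 0.05 by edgeR. The median difference over all genes was 0.28, 0.31 and -0.058 in turn, and near 0 under TMM scaling (-0.011, -0.03 and 0.0025).

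The differences between the tissues were less stable than the IRS2 change in thyroid tissue. With the lamb as a replicate block, since BAT and thyroid tissue were taken from each lamb, IRS1 was 2.55 ± 0.67 for cold (adjusted p = 0.128) and 2.63 ± 0.67 for AT (adjusted p = 0.0557), and IRS2 for AT was 1.89 ± 0.46 (adjusted p = 0.0482), so that 0 and 1 of the 8 passed. Without Control 2, and with none in its place, IRS1 was 1.40 and 1.39 and IRS2 1.41 for AT, and none passed. With all 3 controls IRS1 was 0.62 and 0.60 (adjusted p = 0.741 and 0.685) and IRS2 1.05 for AT (adjusted p = 0.208), and INSR differed for AT (1.59, adjusted p = 0.0169, against 1.22 ± 0.42, adjusted p = 0.115, with 2 controls).

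Among the 103 tested pathway genes beside the 8 in BAT, 1 was upregulated and none downregulated under cold by edgeR, against 0.604% and 0.872% of all genes. FBXO32, a ubiquitin ligase gene that FOXO factors induce, had 112 and 144 in the controls, 196–316 under cold and 238–420 under AT. All 12 treated lambs lay above both controls, at a log2FC of 1.09 ± 0.25 for cold (adjusted p = 0.0416) and 1.36 ± 0.25 for AT (adjusted p = 0.00672). Control 3 had 512, and with all 3 controls the values were 0.17 and 0.43 (adjusted p = 0.833 and 0.46).

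With all 3 controls 1 other gene was upregulated under cold and 5 were downregulated, so that FBXO32 was not among those that passed. Of 14940 genes, 442 were then higher and 476 lower.

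Under AT, 5 of the 103 genes were upregulated in BAT and 12 downregulated, against 3.09% and 6.1% of all genes. With all 3 controls the numbers were 8 and 11, of which 9 were among the 17, against 1005 higher and 807 lower of 14940 genes. With either Control 1 or Control 2 as the only control fewer passed, as did fewer of all genes. Of the 5, 4 were on the list of FOXO factors and genes that FOXO factors induce, which held 13 tested genes with a median log2FC of 0.67, against -0.031 over all genes. The median of the same list under cold was 0.74, against -0.099. PCK1, a gene of glyceroneogenesis and gluconeogenesis, rose by 3.49 ± 1.03 (adjusted p = 0.0478), with 22.7 and 88.2 in the controls and 111–1173 in the AT lambs. SESN3, a stress-responsive regulator of mTORC1, rose by 1.61 ± 0.30 (adjusted p = 0.00672), with 162 and 245 in the controls and 399–879 in the AT lambs. SESN1, of the same family, rose by 1.45 ± 0.33 (adjusted p = 0.0153), from 122 and 149 to 235–641.

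With Control 3 these genes parted. It had 10.8 of PCK1 and 170 of SESN3, near the other controls, and both passed with all 3 controls (3.95 and 1.75, adjusted p = 0.0104 and 0.00175). It had 437 of SESN1, within the AT lambs, and SESN1 did not pass (0.72, adjusted p = 0.21). PDK4, another gene on the list and the kinase that shuts off pyruvate oxidation, had 43512 in Control 3 and 1101–8604 in the other BAT libraries, and passed in no comparison of BAT (0.76 ± 0.61 for cold and -0.29 ± 0.57 for AT). PCK1 passed in 12 of 25 alternatives and SESN3 in 23. The fifth upregulated gene was ARRDC2, an arrestin-like gene related to TXNIP (1.33 ± 0.39, adjusted p = 0.0421), named after its values were seen. Control 3 had 1117 of ARRDC2, above the mean of the AT lambs (925 ± 378, n = 6), and with all 3 controls it did not pass (0.64, adjusted p = 0.3).

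**Figure D5:**
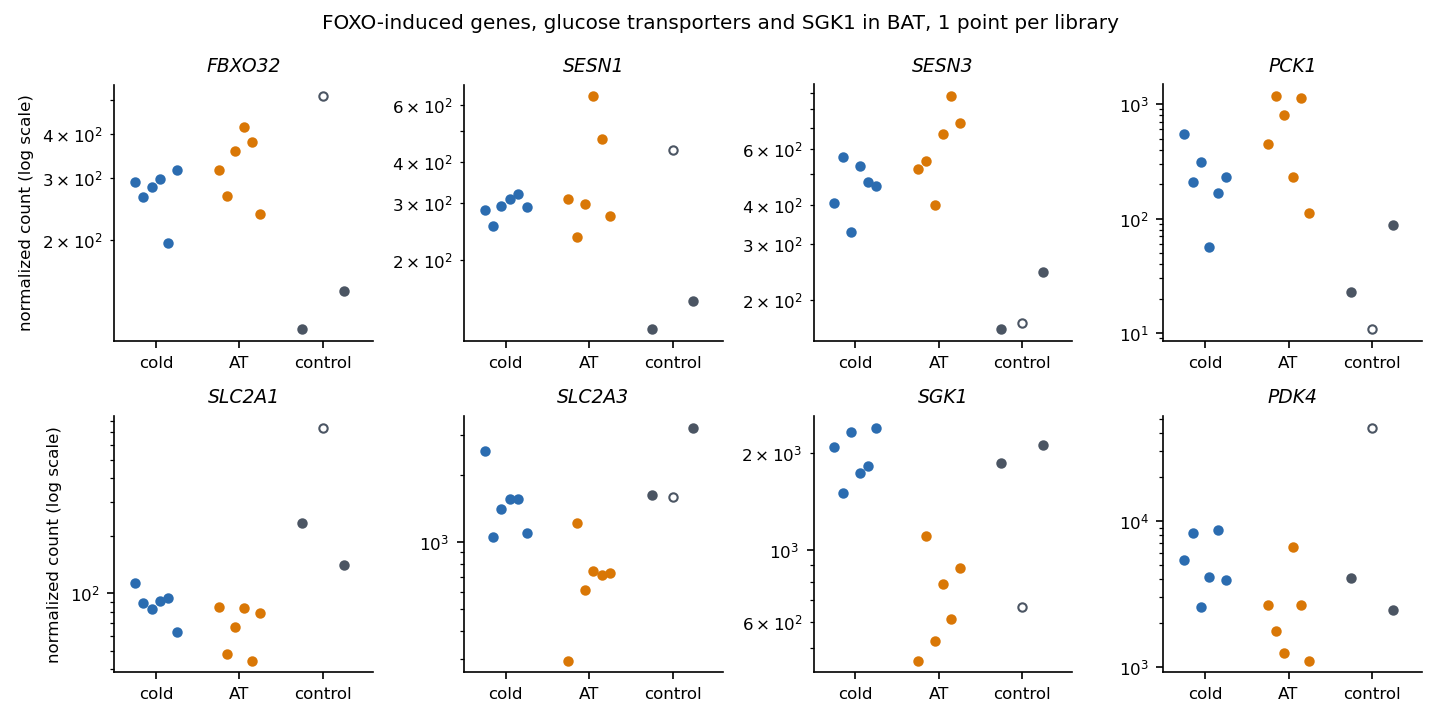
Normalized counts of 8 genes around insulin signalling in BAT on log axes, 1 point per library, with Control 3 as a hollow point; PDK4 was added after its values were seen. FBXO32, SESN1, SESN3 and PCK1 lie higher in the AT lambs than in the 2 filled controls, SLC2A1 and SLC2A3 lower, and SGK1 separates the cold from the AT lambs.

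The 12 downregulated genes included transporters, kinases and genes of vesicle traffic. Every AT lamb also lay below the controls used for endothelial markers in BAT (32992–44522 against 49339–53641) and for brown adipocyte markers (1543–18196 against 24496–30213). Every cold lamb lay below these controls for brown adipocyte markers too (6165–18167), whereas for endothelial markers the cold lambs overlapped them (40797–60116). The part of these markers in the AT changes, up or down, was not tested. Control 3 had 14823 of the endothelial and 92894 of the brown adipocyte markers. SLC2A3 and SLC2A1 encode GLUT3 and GLUT1, which do not depend on insulin for their place at the surface. SLC2A3 had 1625 and 3245 in the controls, 295–1214 in the AT lambs and 1051–2543 under cold, and fell under AT by -1.76 ± 0.38 (adjusted p = 0.0126). SLC2A1 had 234 and 141 in the controls, 44.4–85 in the AT lambs and 62.7–113 in the cold lambs, and fell under AT by -1.46 ± 0.29 (adjusted p = 0.00857). The cold lambs also lay below both controls for SLC2A1 (-1.07 ± 0.29), without passing (adjusted p = 0.0689). With Control 3, at 736 of SLC2A1 and 1588 of SLC2A3, the values for AT were -2.37 (adjusted p = 0.00307) and -1.52 (adjusted p = 0.0125). Of 16 tested genes of GLUT4 vesicle traffic 4 were downregulated under AT (RAB10, LNPEP, VAMP2 and MYO1C, -0.77 to -1.27), with a list median of -0.17, against 6.1% of all genes lower and a median of -0.031. Of 11 genes of glycogen and glucose trapping 3 were downregulated (HK1, PPP1R3D and GSK3A, -0.73 to -1.04), with a list median of -0.33. Under cold no gene of these 2 lists passed, but their medians were similar, at -0.20 and -0.38 in turn, against -0.099 for all genes. These 7 were named as all the genes that passed on their lists. VAMP2 (-0.52, adjusted p = 0.106), MYO1C (-0.56, adjusted p = 0.205) and PPP1R3D (-0.67, adjusted p = 0.086) no longer passed with all 3 controls, and the other 4 did. None of 14 inhibitors of insulin signalling and none of 11 genes of the mTORC1 branch passed in BAT under cold or AT. Of all genes, 0.604% were higher and 0.872% lower under cold, and 3.09% and 6.1% under AT. At such shares, lists this short would hold few passing genes.

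SGK1 was the only gene of the 103 that passed between cold and AT lambs in BAT. It encodes a kinase that is activated through phosphoinositide 3-kinase and induced by glucocorticoids. SGK1 ranged from 1501 to 2388 in the cold lambs and from 456 to 1110 in the AT lambs, and was 1855 and 2113 in the controls. All 6 cold lambs lay above all 6 AT lambs, and the controls lay with the cold lambs. It was higher under cold than under AT by 1.44 ± 0.21 (adjusted p = 0.0196) and lower under AT than in the controls by -1.44 ± 0.27 (adjusted p = 0.0068), while cold against control was -0.0084 ± 0.29. The cold against AT value lay between 1.34 and 1.59 over the 25 alternatives and passed in 19 of them, and with all 3 controls, where Control 3 had 669, it missed the threshold (1.43, adjusted p = 0.1). TBC1D4, the AKT substrate that holds GLUT4 vesicles back, was -0.80 ± 0.17 for cold against AT with no overlap between the groups, but did not pass (adjusted p = 0.0707); it was named after its values were seen.

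In thyroid tissue, 1 of 105 tested pathway genes was upregulated under cold and 22 were downregulated, and under AT 1 and 26 were, next to the background of 16.9% and 18.8% of all genes lower. The list medians of the insulin receptor and adaptors, with 12 tested genes including INSR, IRS1 and IRS2, were -0.58 for cold and -0.54 for AT, against -0.28 for all genes. Also lower were glucose transporters (-0.86, -0.66), the mTORC1 branch (-0.61, -0.55) and glycogen and glucose trapping (-0.65, -0.42). So were kinases below phosphoinositide 3-kinase (-0.52, -0.56), GLUT4 vesicle traffic (-0.51, -0.52) and glucose-sensing factors (-0.34, -0.35). Phosphoinositide 3-kinase subunits (-0.11, -0.27), inhibitors of insulin signalling (-0.27, -0.14) and the FOXO list (-0.096, -0.059) lay above -0.28. Under TMM scaling 2 of the 105 were upregulated and 7 downregulated for cold, and 1 and 7 for AT. Without Control 2, and with none in its place, fewer of the 105 passed in each comparison, as did fewer of all genes.

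SESN3 was the gene that rose, from 869 and 935 in the controls to 1309–2172 in the cold lambs (0.83 ± 0.22, adjusted p = 0.0185) and 1051–1763 in the AT lambs (0.64 ± 0.21, adjusted p = 0.0463). Control 3 had 459. SESN3 lay above the controls in all 12 treated lambs, here as in BAT. SOCS3, an inhibitor of cytokine and insulin receptor signalling, had 1001 and 300 in the controls, 165–284 under cold and 105–279 under AT, and fell by -1.56 ± 0.36 (adjusted p = 0.0108) and -1.85 ± 0.36 (adjusted p = 0.00388). SLC2A8, an intracellular glucose transporter gene, had 1926 and 4135 in the controls and 825–1355 in the treated lambs, and fell by -1.42 ± 0.24 (adjusted p = 0.00271) and -1.53 ± 0.24 (adjusted p = 0.0017), with Control 3 at 2443. The size of both changes varied with the control used. With Control 2 alone SOCS3 was -0.44 and -0.74, and with Control 1 alone SLC2A8 was -0.75 and -0.86. With all 3 controls both genes passed. SOCS3 was then -1.39 and -1.68 (adjusted p = 0.0122 and 0.00527) and SLC2A8 -1.33 and -1.42 (adjusted p = 0.00217 and 0.00161).

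In the fit with 2 controls, SLC2A10 and PDK4 were each called on the level of a single control. SLC2A10, a further transporter gene of the family, had 999 in Control 2, 172 in Control 1 and 82.1–222 in the treated lambs (-2.27 ± 0.44, adjusted p = 0.00534, for cold and -1.97 ± 0.45, adjusted p = 0.00856, for AT), and with Control 3 (14.2) in place of Control 2 its sign turned. PDK4 was lower under cold (-2.40 ± 0.75, adjusted p = 0.0425), with 12047 in Control 1, 1639 in Control 2 and 5475 in AT 3. Among the libraries used, its highest values were thus those of the 2 with muscle RNA, and Control 3 had 7588. With all 3 controls PDK4 passed for cold (-2.45, adjusted p = 0.0188). SLC2A10 then passed neither for cold (-1.70, adjusted p = 0.0945) nor for AT (-1.39, adjusted p = 0.168). None of the 105 genes passed between cold and AT lambs in thyroid tissue.

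The change under AT differed between the tissues for 4 of the pathway genes beside the 8, all higher in BAT relative to thyroid tissue, and under cold for none. Of all genes, 2.13% differed in this direction under AT and 0.243% in the other, with a median difference of 0.31, and with TMM scaling 3 of the pathway genes differed. ENPP1, an inhibitor of the insulin receptor, differed by 1.85 ± 0.40 (adjusted p = 0.0147), SLC2A8 by 1.84 ± 0.41 (adjusted p = 0.0193) and SESN1 by 1.72 ± 0.37 (adjusted p = 0.0142). The fourth was FOXO3, named after its values were seen (1.37 ± 0.36, adjusted p = 0.0432). Between the tissues themselves, 54 of 103 pathway genes were higher and 22 lower in BAT, against 47.3% and 23.6% of all genes, and with TMM scaling 40 were higher and 36 lower. The largest differences were those of TRIB3, an inhibitor of AKT (4.65 ± 0.66), PCK1 (4.50 ± 0.73) and MLXIPL, the glucose-sensing factor that induces TXNIP (4.43 ± 0.33), and in the other direction those of the atypical protein kinase C genes PRKCZ (-2.51 ± 0.26) and PRKCI (-1.88 ± 0.17) and of SESN1 (-1.96 ± 0.14).

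For 4 of the 8 genes, the genes with the most similar levels over the 14 libraries of a tissue were looked up, as a description. In BAT, these were ZNF827, MTG1 and RABEPK for SLC2A4 (Pearson r of log2 levels 0.934, 0.923 and 0.915), CCT3, NDUFS3 and INSIG1 for IRS2 (0.938, 0.881 and 0.868), LYSMD1, ACKR1 and APIP for FOXO1 (0.885, 0.836 and 0.82) and DNM3, ITGA2 and DDIT4 for TXNIP (0.924, 0.893 and 0.882), out of 12650 genes. In thyroid tissue SLC2A4 was most like HRC, TPM1 and ITIH4 (0.978, 0.967 and 0.965), of which HRC and TPM1 are muscle genes. Without AT 3 and Control 1 the values were 0.68, 0.42 and 0.807 over 12 libraries. IRS2 was most like SPAG1, ZBTB21 and CIPC (0.923, 0.921 and 0.915), FOXO1 like CXCL12, EPS8 and ABCG1 (0.909, 0.894 and 0.884), and TXNIP like KIT, CCL14 and ADAMTS5 (0.689, 0.685 and 0.673), out of 14220 genes. The best of so many genes will be high by selection, and the libraries share their size factors.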

How the data were processed

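RNA of BAT and thyroid tissue of 15 lambs was measured in 30 libraries. Per the labels and methods of the study, the authors trimmed read pairs with Trimmomatic 0.39, aligned them with STAR 2.7.7a to Oar_rambouillet_v1.0 and counted them per gene with featureCounts (Subread 2.0.0), multimapping reads included, and they deposited raw counts without normalization. The strand setting of the counting is not given in the sources used here. No exon of the 8 genes overlaps an exon of another gene.

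Per tissue, edgeR 4.0.16 (quasi-likelihood, robust mode, R 4.3.3) was fitted to all 3 groups over genes reaching 10 reads or more in 10 or more libraries. ACTB, RPL19 and HUWE1 gave the size factors (DESeq2 1.42.0), and p-values (2-sided) were adjusted over every tested gene after Benjamini and Hochberg. Passing, rising and falling mean an adjusted p under 0.05. SE is |log2FC| over the root of F, and 95% intervals are ± 1.96 SE. These intervals are approximate and narrower than the F test implies. They can leave out 0 where the unadjusted p is above 0.05. Tissues were compared in 1 fit with 6 group means. The fit was tested on simulated data. The lamb that the study left out of the controls was found by matching the study's normalized counts per lamb to the libraries. Depth varied and the precision of low genes such as IRS1 in BAT is limited by their counts. Each library is 1 lamb.

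The members and lists were chosen with earlier results of these data known. Named are the 8 genes, in each comparison up to 3 other passing pathway genes at either end of the log2FC, the reference genes, and for SLC2A4, IRS2, FOXO1 and TXNIP the 3 named genes (mean of at least 50) most like them by Pearson correlation of log2(normalized count + 1). The lamb's number in the labels pairs its BAT and thyroid libraries, whose deviations from the group means correlated by -0.0318 to 0.386 (median 0.183, 11 of 14 lambs over 0.1), so the lamb as a block is the paired fit. Alternatives were other size factors, DESeq2, all 3 controls, other filters, only the groups compared, RNA integrity as a covariate and leaving out each lamb.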

Additional observations from a re-analysis of the deposited data

Results flagged for a closer look

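Of 32 groups of 6 lambs and 1 gene, 3 held a library far from the other 5, where chance gives about 1 in 20 (1.6 of 32). These were IRS2 in thyroid Cold 4 (1879, others 738–1036), AKT2 in thyroid AT 3 (2111, others 1297–1443) and SLC2A4 in thyroid AT 3 (2118, others 101–228). AT 3 is the library with the summed muscle marker level of 3823136, and the part of muscle RNA in its AKT2 was not tested.

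The change differed between BAT and thyroid tissue, by a test of the difference itself, for IRS1 under cold (2.87) and AT (2.84) and for IRS2 under AT (1.85). None of these 3 passed with all 3 controls or without Control 2 with none in its place.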

How the results depend on the processing

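Of 1896 log2FC values of the 8 genes under the alternatives, 1741 kept their direction and their side of the threshold (a sign change by less than the SE, with neither value passing, was counted among these), 62 no longer passed, 36 passed only under the alternative and 57 turned in sign. The cause of these changes was not tested.

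With TMM scaling 1 of the 8 genes passed in BAT under cold and 1 under AT, 2 and 1 in thyroid tissue, and 0 and 1 in the difference between tissues, and FOXO1 in thyroid tissue turned to 0.085 and 0.096. Of 14905 genes in BAT, 287 were then higher and 201 lower under cold, and 865 and 878 under AT. Of 16122 in thyroid tissue, 630 and 804 were so under cold, and 647 and 754 under AT. For the tissue difference, 21 were higher and 12 lower of 14403 under cold, and 95 and 116 under AT. With median-of-ratios size factors 1 and 1 of the 8 passed in BAT, 2 and 1 in thyroid tissue and 1 for the tissue difference under AT, and FOXO1 was 0.088 and 0.093. Of all genes, 268 were higher and 223 lower in BAT under cold, and 818 and 958 under AT. In thyroid tissue 641 and 780 were so under cold and 644 and 753 under AT, and 98 and 102 for the tissue difference under AT. DESeq2 gave 1 and 1 of the 8 in BAT, against 464 higher and 482 lower of all genes under cold, and 944 and 1225 under AT. With only the groups compared 1 of the 8 passed in thyroid tissue under AT, without the libraries with muscle RNA 5 did, and with the fold threshold 2 did under cold. Of 16122 genes, 138 were higher and 919 lower in the first of these settings, and 365 and 2997 in the second. The fold threshold left 1297 genes under cold. Without a filter 0 and 1 of the 8 differed between tissues under cold and AT. Of 24623 genes, 15 were then higher and 0 lower under cold, and 167 and 16 under AT. With the lamb as a replicate block also 0 and 1 of the 8 differed, where the tissue difference of SLC2A4 in cold against AT was -0.043. The block turned no other direction and changed no call but that of IRS1 in the tissue difference under cold and AT.

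With all 3 controls 5 passed in thyroid tissue under AT, and 0 and 1 in the tissue difference. IRS1 turned to -0.92 and TXNIP to 0.36 in BAT under cold, and IRS1 to -1.03, IRS2 to -0.63 and SLC2A4 to -0.42 under AT. TXNIP was -0.32 in thyroid tissue under AT and 0.14 in the tissue difference. With TMM scaling as well, 1 passed in BAT and 2 in thyroid tissue under cold. There, IRS1, FOXO1 and TXNIP were -1.13, -0.22 and 0.31 in BAT under cold, and IRS1, IRS2, AKT2, SLC2A4 and FOXO1 were -1.33, -0.86, -0.35, -0.66 and -0.14 under AT. This setting, the muscle setting and leaving a control out with none in its place were chosen after seeing the data.

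With Control 2 left out and none in its place, 0 passed in thyroid tissue under cold and 1 under AT, and 0 and 0 in the tissue difference. IRS2 was -0.24 in BAT and TXNIP -0.44 in thyroid tissue under AT, and AKT2 0.02 between BAT and thyroid tissue. With Control 1 left out in the same way, IRS2 was 0.48 in BAT and TXNIP 0.58 in thyroid tissue under cold, and SLC2A4 and TXNIP were -0.33 and -0.56 in the tissue difference.

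Leaving out 1 lamb at a time, with Control 3 in place of a control, gave 0 to 1 passing in BAT under cold, 0 to 2 in cold against AT, 3 to 5 in thyroid tissue under AT, and 0 to 1 and 1 to 3 in the tissue difference. The numbers over all genes moved as well. In thyroid tissue under AT, 1500 of 16122 genes were lower with Control 3 in place of Control 2, and 4787 without AT 3. Between cold and AT in BAT, 0 genes passed with Control 3 in place of Control 1. Without AT 6, 56 were higher and 123 lower. In BAT under cold the values ran from -1.38 to 1.14 for IRS1, -0.25 to 0.12 for FOXO1 and -0.11 to 0.54 for TXNIP, and IRS2 reached -1.44 and SLC2A4 -1.54, each passing with Control 3 in place of a control. In BAT under AT they ran from -1.48 to 1.07 for IRS1, -1.02 to 0.35 for IRS2, -0.31 to 0.18 for AKT2, -0.73 to 0.57 for SLC2A4, -0.071 to 0.29 for FOXO1 and -0.73 to 0.036 for TXNIP, and for FOXO1 in cold against AT from -0.22 to 0.012. In thyroid tissue under AT they ran from -1.07 to 1.26 for SLC2A4 and -0.66 to 0.12 for TXNIP. The tissue difference under cold ran from -0.88 to 2.96 for IRS1, -0.18 to 1.22 for IRS2, -0.16 to 0.77 for AKT2 and -0.99 to 0.93 for SLC2A4. Under AT it ran from -0.87 to 3.13 for IRS1, -0.018 to 1.06 for AKT2, -1.97 to 1.38 for SLC2A4 and -0.77 to 0.66 for TXNIP, and in cold against AT from -0.53 to 1.31 for SLC2A4. AKT2 between BAT and thyroid tissue ran from -0.23 to 0.15.

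Counts limit the precision for IRS1 in BAT, at 37–230 raw counts, and 2 controls limit every comparison with them.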
